A study of Mus musculus with 6 samples.

Results

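The 20 genes described here were expressed in untreated leukaemia cells and stood at least 3 times lower in every library of tamoxifen-treated leukaemia. They were chosen from 24015 listed genes by CPM, the count of a gene scaled to equal library totals: at least 10 CPM in all 3 untreated libraries, with the highest treated library at no more than the lowest untreated library divided by 3. Of 8567 genes that met the level limit, 24 met both limits (0.28%), and 4 of these, Mpo, Hdc, Nt5e and Mef2c, were left out together with Nkg7, Bcl2, Pbx3 and Cdkn1a. The treated values chose the members, so the difference between the groups is given for them as a description, without a test.

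RNA was sequenced from mouse leukaemia stem and progenitor cells purified by sorting, 3 libraries named LSPCT from tamoxifen-treated mice and 3 named LSPC from untreated mice, all with fully developed acute myeloid leukaemia. In both groups the leukaemia was driven by MLL-AF9 and had been started from lin-cKit+ bone marrow progenitors of NIKERT2 mice, which carry Rosa-loxp-STOP-loxp-NIK and Rosa-CreERT2. Tamoxifen activates the Cre recombinase, so that the stop before the kinase NIK (gene Map3k14) is lost. Tamoxifen, Cre activity and NIK changed together and cannot be told apart. The sources used here do not give strain, age, tamoxifen dose and time, the sort gates or whether each library is 1 mouse, so p-values measure only the spread between these libraries, which may be technical. In sorted bulk cells, fewer cells of a type and less RNA per cell cannot be told apart.

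NIK stabilisation drives the noncanonical NF-kB pathway, in which p100 is processed to p52 and enters the nucleus with RelB. MLL-AF9 leukaemia stem cells resemble granulocyte-monocyte progenitors (GMP), myeloid precursors that make primary granule proteases, and they keep a self-renewal programme of Hoxa genes, Meis1 and Mef2c. Mpo and Hdc, listed here as GMP genes, and Mef2c met both limits but were left out by name. Their absence from the 20 was thus set by the rule. The 20 genes that remain come from other functions: adhesion and matrix, vascular-type signalling, hormone receptors, intracellular signalling enzymes and the secretory pathway.

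Total counts were 19999071 to 22454753 in the LSPCT libraries and 20410001 to 26773176 in the LSPC libraries, so that 3 counts, the limit a count of 0 allows for counting error, equal 0.112 to 0.150 CPM. Map3k14 stood at 129.96, 190.6 and 160.5 CPM in LSPCT libraries and 26.1, 24.2 and 28.9 CPM in LSPC libraries, the direction the labels give. LSPCT replicate 1 stood apart from the other treated libraries in immediate-early and heat shock genes. Jun was at 488.4, 5.25 and 8.77 CPM in LSPCT replicates 1 to 3, and the chaperone gene Hspa1a at 310.3, 0.604 and 0.624 CPM. These genes also varied among the untreated libraries, with Jun at 272.7, 366.6 and 63.4 CPM and Hspa1a at 31.7, 52.8 and 12.9 CPM in LSPC replicates 1 to 3. Without LSPCT replicate 1 the same limits held for 63 genes, which include the 20 by construction.

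**Figure D1:**
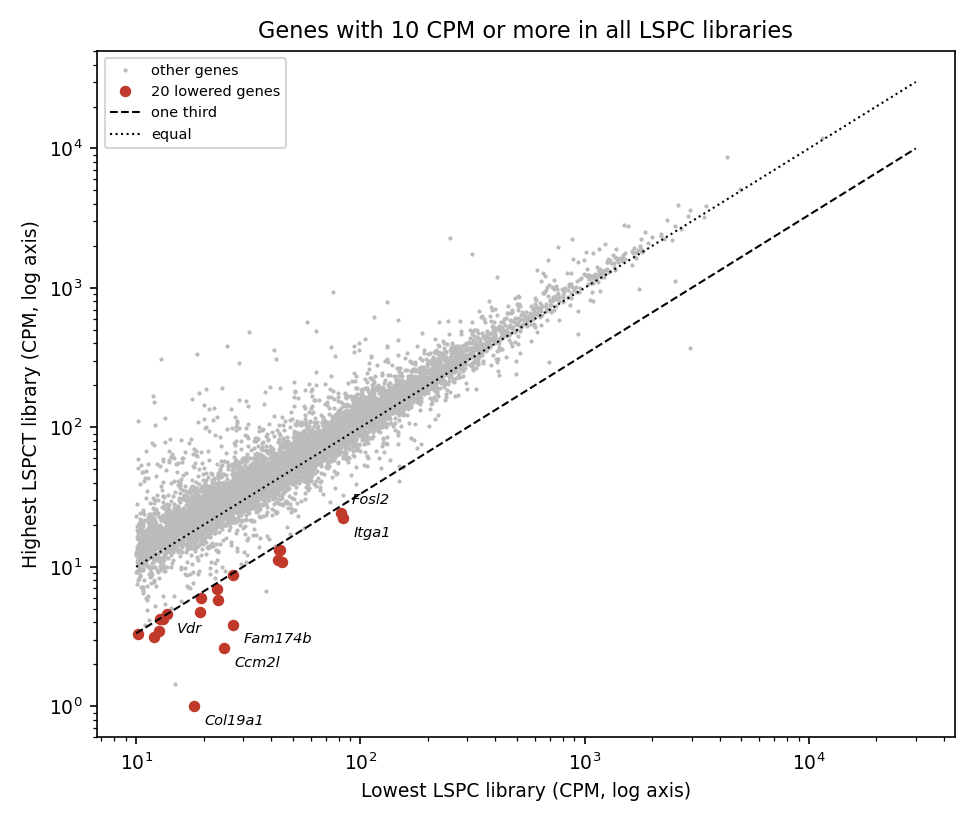
Highest LSPCT library against lowest LSPC library for the 8567 genes with 10 CPM or more in all LSPC libraries, in CPM on log axes; each point is a gene. The 20 lowered genes (red) lie on or under the dashed line that marks the LSPC value divided by 3, with Col19a1 lowest; grey points under the line are the 4 genes left out by name.

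The 20 genes were of moderate level in untreated cells. Their LSPC means ran from 14.1 to 101.4 CPM, 16 of them under 50 CPM, with a median of 25.5 CPM against 56.0 CPM over the 8567 genes. The ratio of the LSPC mean to the LSPCT mean ran from 3.62 for St14 to 45.5 for Col19a1, with a median of 5.96. In LSPCT libraries the genes were still detected: 17 of the 20 stayed at 1 CPM or more in every LSPCT library. Mirrored limits, at least 10 CPM in all LSPCT libraries with every one at least 3 times above the highest LSPC library, held for 107 of 8560 genes (1.25%). Just inside the limit were Vdr, Mmp28 and Tshr, whose highest LSPCT value was 33.2%, 33.0% and 32.2% of the lowest LSPC value. Just outside were Tpcn1 at 33.5%, Efcab4a at 34.1% and Fam101b at 34.3%.

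In edgeR's quasi-likelihood test across 12729 genes all 20 members passed as lower in LSPCT (background: 8.24% of genes tested were lower and 8.96% higher, adjusted p under 0.05). The rule used the same contrast, so nothing is read from that count. LSPCT values lay under all LSPC values in 22.7% of the 8567 genes, which the rule likewise fixes for its members.

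**Figure D2:**
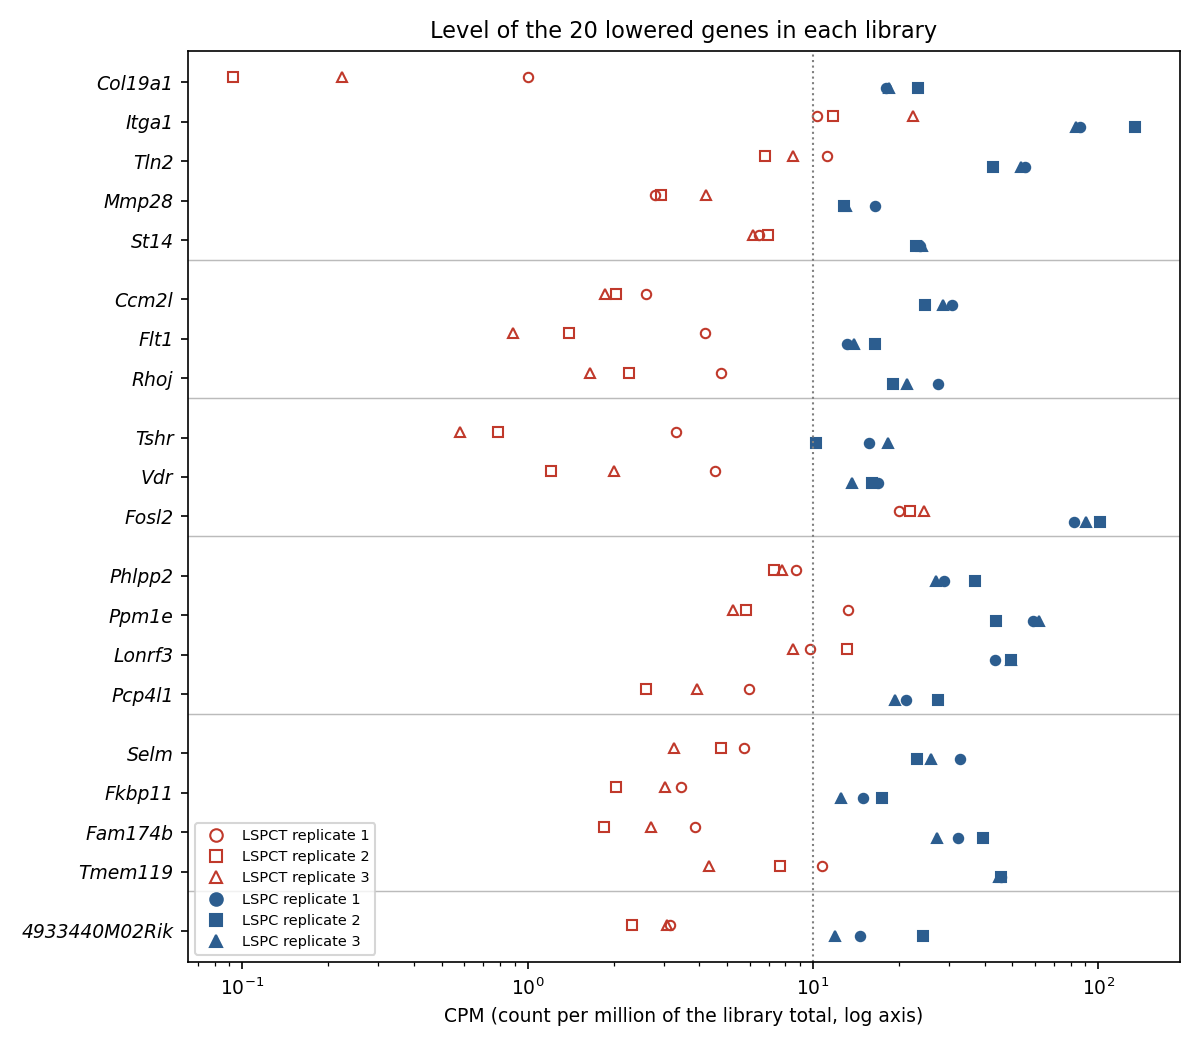
Level of the 20 genes in each library, in CPM on a log axis, with LSPCT libraries as open red symbols and LSPC libraries as filled blue symbols; grey lines part the roles and the dotted line marks 10 CPM. Every LSPC symbol lies right of 10 CPM by the rule, and the LSPCT symbols are spread most in Col19a1, Tshr and Flt1 and least in St14. Levels of different genes are not corrected for length.

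Adhesion, matrix and surface protease genes made up 5 of the 20. Col19a1 encodes a collagen of the FACIT class, which sits on the surface of larger collagen fibrils. It stood at 1.0, 0.0928 and 0.223 CPM in LSPCT libraries against 18.0, 23.4 and 18.5 CPM in LSPC libraries, and the treated values rested on 20, 2 and 5 counts. LSPCT replicate 1 was the highest of the treated libraries and lay at 5.55% of the lowest untreated one, further under it than the rule asks. Itga1 encodes the alpha 1 integrin chain, which pairs with beta 1 to bind collagen and laminin. Its levels were 10.4, 11.7 and 22.4 CPM in LSPCT libraries and 86.3, 134.3 and 83.7 CPM in LSPC libraries. Here LSPCT replicate 3 was the highest of the treated libraries. The gene Pelo lies within Itga1, and its own counts fell by 0.68 on the log2 scale (edgeR adjusted p = 0.00837).

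Tln2 encodes talin 2, which couples integrin tails to actin, and it was at 11.2, 6.78 and 8.55 CPM in LSPCT libraries against 55.6, 42.9 and 53.7 CPM in LSPC libraries. The metalloproteinase gene Mmp28 was at 2.80, 2.92 and 4.23 CPM against 16.5, 12.8 and 13.1 CPM in the LSPC libraries. Part of its exons overlap those of 1700020L24Rik on the other strand, and as the strand setting is not given, their reads may be shared. St14, the gene of the membrane serine protease matriptase, was the most even, at 6.45, 6.96 and 6.15 CPM in LSPCT libraries and 23.8, 23.0 and 24.1 CPM in LSPC libraries.

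Most partners and relatives of these proteins did not pass the test. Itgb1, the beta 1 chain that pairs with alpha 1, averaged 204.1 ± 7.20 CPM in LSPCT and 203.5 ± 16.8 CPM in LSPC libraries (SD, n = 3 each; edgeR log2 -0.00, SE 0.09, adjusted p = 0.984). Tln1, the other talin gene, had a log2 difference of 0.10 (SE 0.14, edgeR adjusted p = 0.655), with a lower value in LSPCT replicate 1 (1149 CPM) than in replicates 2 and 3 (1711 and 1552 CPM). Without that replicate Tln1 rose (edgeR adjusted p = 0.0302). The integrin activator Fermt3 differed by 0.03 (SE 0.10, edgeR adjusted p = 0.871) and Vcl by -0.10 (SE 0.24, edgeR adjusted p = 0.812). Of 8 other metalloproteinase genes tested, 1 fell and 3 rose. Mmp19 fell to 24.4 ± 1.35 CPM in LSPCT, against 42.2 ± 1.98 CPM in LSPC libraries (SD, n = 3 each; edgeR adjusted p = 0.00112). Mmp2, Mmp12 and Mmp14 rose (log2 1.79, 3.19 and 1.17) but lost the threshold in some refits that left out 1 library (edgeR adjusted p up to 0.114, 0.110 and 0.156), and none of the 3 passed without LSPCT replicate 3. Of 4 other FACIT collagen genes tested none fell and 2 rose, Col14a1 and Col16a1, each with under 0.3 CPM in every LSPC library; neither passed without LSPC replicate 1, 2 or 3 (edgeR adjusted p up to 0.0897 and 0.139).

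Vascular-type signalling was represented by Ccm2l, Flt1 and Rhoj. Ccm2l is a paralogue of the adaptor CCM2, which is studied for its part in vessel and heart development, and it was the most evenly lowered of the 3. It stood at 2.60, 2.04 and 1.87 CPM in LSPCT libraries and 30.6, 24.7 and 28.7 CPM in LSPC libraries. Flt1 encodes VEGF receptor 1, which monocytes also carry, and its levels were 4.20, 1.39 and 0.891 CPM in LSPCT libraries against 13.2, 16.5 and 13.9 CPM in LSPC libraries. Rhoj encodes a small GTPase of the Cdc42 family, known best from endothelium, and was at 4.75, 2.27 and 1.65 CPM in LSPCT libraries against 27.4, 19.2 and 21.4 CPM in LSPC libraries. For Flt1 and Rhoj the treated libraries were less alike, with LSPCT replicate 1 the highest.

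Genes that define endothelial cells were near 0 in the same untreated libraries. Cdh5 reached 0.0374 CPM, Kdr 0.147 CPM, Emcn 0.127 CPM and Tek 0.196 CPM at most in LSPC libraries, and the highest LSPCT values were 1.05, 0.464, 0 and 0.50 CPM. Pecam1, which myeloid cells also express, fell to 82.3, 53.0 and 66.9 CPM in LSPCT libraries, against 141.1, 161.6 and 125.6 CPM in LSPC libraries (edgeR log2 -1.09, adjusted p = 0.00391). The summed level of the 16 stromal and endothelial markers was 575.1 to 1112 CPM in LSPCT and 252.4 to 316.8 CPM in LSPC libraries, and in the LSPCT libraries most of it was Vcam1.

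The promoters of Rhoj and Flt1 are shown for the motif letters they hold. The windows run from 250 bases before to 50 after the start of transcription (RefSeq, GRCm38.p6), with capitals marking GGAA on either strand, the core of ETS factor sites, in Rhoj (chr12:75308063-75308362, plus strand), and the kB motif in Flt1 (chr5:147725962-147726261, minus strand).
Rhoj: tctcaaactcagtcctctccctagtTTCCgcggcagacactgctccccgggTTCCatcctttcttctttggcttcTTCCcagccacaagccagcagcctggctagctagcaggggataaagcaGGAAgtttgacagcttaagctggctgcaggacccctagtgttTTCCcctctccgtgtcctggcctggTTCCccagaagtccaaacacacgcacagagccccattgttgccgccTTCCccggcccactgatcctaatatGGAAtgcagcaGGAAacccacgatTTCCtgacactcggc
Flt1: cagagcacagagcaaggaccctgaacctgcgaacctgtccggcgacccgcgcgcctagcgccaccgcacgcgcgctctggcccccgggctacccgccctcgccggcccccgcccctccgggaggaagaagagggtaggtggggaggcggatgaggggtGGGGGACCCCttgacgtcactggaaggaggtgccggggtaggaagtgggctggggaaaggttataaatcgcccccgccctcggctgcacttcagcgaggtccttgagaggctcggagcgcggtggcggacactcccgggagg
The Rhoj window holds 10 matches to GGAA, the most of the 16 promoters found for the members. That many were reached by 0.921% of the 8901 promoters found for genes with at least 10 CPM in all LSPC libraries. This share is that of the highest of 16 windows. The median was 3.5 matches in the member promoters and 3.0 in the 8901. The Flt1 window holds the kB motif at 1 position.

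Of 7 tested genes of the CCM complex and its partners, 2 fell and none rose. These were Stk24 (log2 -0.40, SE 0.08, edgeR adjusted p = 0.0121, and 0.0582 without LSPC replicate 3) and Heg1 (log2 -0.58, SE 0.15, edgeR adjusted p = 0.0355, up to 0.108 without single libraries), and neither passed without LSPC replicate 3. Ccm2 itself differed by -0.18 (SE 0.10, edgeR adjusted p = 0.244) and Krit1 by 0.03 (SE 0.10, edgeR adjusted p = 0.890). Among 5 tested VEGF receptors, co-receptors and ligands the semaphorin and VEGF co-receptor gene Nrp2 rose to 14.3 ± 1.66 CPM in LSPCT, against 7.21 ± 0.358 CPM in LSPC libraries (SD, n = 3 each; edgeR adjusted p = 0.00602), and none fell. Of 8 Cdc42 and Rac family genes, 2 fell and 1 rose. Rhou fell to 11.3 ± 1.88 CPM in LSPCT, against 34.0 ± 3.82 CPM in LSPC libraries (SD, n = 3 each; edgeR log2 -1.60, adjusted p = 0.000498). Rhov rested on under 1 CPM in every library and Rhoq (log2 0.52) was lost in 5 of the refits without 1 library (edgeR adjusted p up to 0.104 and 0.107).

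Receptors for hormones and 1 transcription factor formed another group. Tshr, the thyrotropin receptor gene, stood at 3.30, 0.789 and 0.579 CPM in LSPCT libraries and 15.7, 10.2 and 18.4 CPM in LSPC libraries. Vdr encodes the nuclear receptor of active vitamin D, a hormone known to push myeloid cells towards monocytes, and it was at 4.55, 1.21 and 2.0 CPM in LSPCT libraries against 16.9, 16.1 and 13.7 CPM in LSPC libraries. In both receptor genes LSPCT replicate 1 was well above the other treated libraries. That no LSPCT value reached an LSPC value was fixed by the rule. The RXR genes, whose products pair with the vitamin D receptor, did not pass: Rxra differed by 0.13 (SE 0.17, edgeR adjusted p = 0.650) and Rxrb by -0.17 (SE 0.13, edgeR adjusted p = 0.414). Cyp24a1, the vitamin D target gene of many tissues, had no count in any library. Of the other glycoprotein hormone receptor family genes only Lgr4 and Lgr6 were tested, and neither passed (edgeR adjusted p = 0.150 and 0.901).

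Fosl2 encodes Fra-2, a subunit of the AP-1 transcription factor. Its levels were 20.1, 21.9 and 24.4 CPM in LSPCT libraries and 82.3, 101.4 and 90.5 CPM in LSPC libraries, and both groups were tight. Its AP-1 relatives include the immediate-early genes in which LSPCT replicate 1 stood apart. Fos stood at 213.0, 8.54 and 10.1 CPM in LSPCT libraries against 295.5, 295.1 and 106.9 CPM in LSPC libraries, and its difference did not pass (log2 -1.60, SE 1.11, edgeR adjusted p = 0.367). Jun likewise did not pass (log2 -0.49, SE 1.42, edgeR adjusted p = 0.846), and without LSPCT replicate 1 Fos and Jun both fell (log2 -4.65 and -5.07, edgeR adjusted p = 0.000327 and 0.00220). Batf (log2 -0.19, edgeR adjusted p = 0.312) and Junb (0.21, edgeR adjusted p = 0.666) did not pass, and Batf2 rose by 1.70 (SE 0.34, edgeR adjusted p = 0.0118, and 0.0596 without LSPC replicate 1). None of 8 tested AP-1 relatives fell (4 did without LSPCT replicate 1).

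The Fosl2 promoter is shown for its kB motif, the kind of site that NF-kB dimers bind, given in capitals (RefSeq, GRCm38.p6, chr5:32136222-32136521, plus strand).
Fosl2: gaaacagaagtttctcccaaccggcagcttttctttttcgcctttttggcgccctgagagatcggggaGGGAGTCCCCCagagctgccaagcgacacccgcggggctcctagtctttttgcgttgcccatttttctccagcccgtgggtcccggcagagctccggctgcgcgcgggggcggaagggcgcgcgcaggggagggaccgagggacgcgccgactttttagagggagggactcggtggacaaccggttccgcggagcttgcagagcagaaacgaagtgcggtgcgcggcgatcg
The motif matches at 2 overlapping positions, the most of any member window, and 1.35% of the 8901 promoters hold 2 or more. Over the 16 promoters found for 15 of the 20 genes, 2 held the kB motif (12.5%), against 10.2% of the 8901. GGAA was in 15 of 16 (93.8%, against 96.0%), the MYB core AACNG in 12 (75.0%, against 78.3%) and the E box CACGTG in 2 (12.5%, against 10.9%). No member window held the RUNX letters TGTGGT (12.2% of the 8901), the C/EBP letters TTGCNNAA (8.15%), the AP-1 letters TGANTCA (4.47%) or the MEF2 motif (0.281%). All motifs were searched on both strands. The median ratio of observed to expected CpG was 0.666 in the member promoters and 0.793 in the 8901. Ccm2l, Tmem119, Tln2, St14 and Tshr were not among the matched promoters.

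Intracellular signalling enzymes and small modulators gave 4 members. Phlpp2 encodes a phosphatase that takes the activating phosphate off Akt and stood at 8.70, 7.29 and 7.79 CPM in LSPCT libraries against 28.8, 37.0 and 27.1 CPM in LSPC libraries. Ppm1e, a phosphatase gene whose product acts on PAK and calmodulin-dependent kinases, was at 13.3, 5.85 and 5.26 CPM in LSPCT libraries against 59.3, 44.0 and 62.1 CPM in LSPC libraries. Phlpp2 was even over the treated libraries, whereas LSPCT replicate 1 held 2.40 times the mean of replicates 2 and 3 for Ppm1e. Lonrf3, a RING finger gene with a LON domain, stood at 9.75, 13.2 and 8.51 CPM in LSPCT libraries and 43.4, 49.6 and 49.4 CPM in LSPC libraries. Pcp4l1, a paralogue of the calmodulin-binding protein gene Pcp4, was at 5.95, 2.60 and 3.92 CPM in LSPCT libraries against 21.1, 27.4 and 19.4 CPM in LSPC libraries. The LSPC libraries were closer together for Lonrf3 than for Pcp4l1.

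Some relatives of these enzymes fell as well, by less. Lonrf1 fell to 36.4 ± 3.80 CPM in LSPCT, against 67.3 ± 2.03 CPM in LSPC libraries (SD, n = 3 each; edgeR log2 -0.90, adjusted p = 0.000813). Of 9 other PPM phosphatase genes 3 fell and none rose, Ppm1d, Ppm1f and Ppm1a, by 0.35 to 0.57 on the log2 scale, and each missed the threshold in refits without single libraries (edgeR adjusted p up to 0.0816, 0.0936 and 0.113; none of the 9 passed without LSPC replicate 1). Calm2 differed by -0.30 (SE 0.08, edgeR adjusted p = 0.0311, up to 0.106 without single libraries), and Calm3 did not pass (edgeR adjusted p = 0.763).

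The secretory pathway and membrane group had 4 members. Selm, now named Selenom, encodes a selenoprotein of the endoplasmic reticulum and stood at 5.75, 4.78 and 3.25 CPM in LSPCT libraries against 32.7, 23.2 and 25.9 CPM in LSPC libraries. Fkbp11 encodes a peptidyl-prolyl isomerase of the same compartment, best known from secretory cells, and was at 3.45, 2.04 and 3.03 CPM in LSPCT libraries against 15.0, 17.4 and 12.6 CPM in LSPC libraries. In both genes every treated value lay well under the untreated ones, as the rule requires of all 20. Fam174b, a membrane protein gene, was at 3.85, 1.86 and 2.72 CPM in LSPCT libraries against 32.1, 39.6 and 27.2 CPM in LSPC libraries. Tmem119, whose product marks microglia in mouse brain and acts in bone formation, was at 10.8, 7.66 and 4.32 CPM in LSPCT libraries against 45.6, 45.5 and 44.9 CPM in LSPC libraries. The Tmem119 values of the untreated libraries were the closest of all 20 genes. The long noncoding RNA 4933440M02Rik completed the 20, with 3.15, 2.32 and 3.07 CPM in LSPCT libraries against 14.6, 24.3 and 12.0 CPM in LSPC libraries.

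Of 4 tested selenoprotein genes of the endoplasmic reticulum none fell and Selt rose (log2 0.49, SE 0.09, edgeR adjusted p = 0.00848, and 0.0547 without LSPC replicate 1). Of 3 tested FKBP isomerase genes of that compartment none passed, with Fkbp2 at a log2 difference of -0.16 (SE 0.10, edgeR adjusted p = 0.319). Fam174a, the paralogue of Fam174b, differed by 0.18 (SE 0.18, edgeR adjusted p = 0.543). Over all 18 sets of relatives, 12 of 79 tested genes fell (15.2%, against 8.24% of all genes tested) and 9 rose (11.4%, against 8.96%), with a median log2 difference of -0.05 against -0.00 over all genes tested. These counts leaned on single libraries: 19 fell without LSPCT replicate 1, 6 without LSPC replicate 1 or 2 and 7 without LSPC replicate 3 or LSPCT replicate 3, while 1 rose without LSPC replicate 1, 4 without LSPC replicate 2 or 3 and 5 without LSPCT replicate 3.

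**Figure D3:**
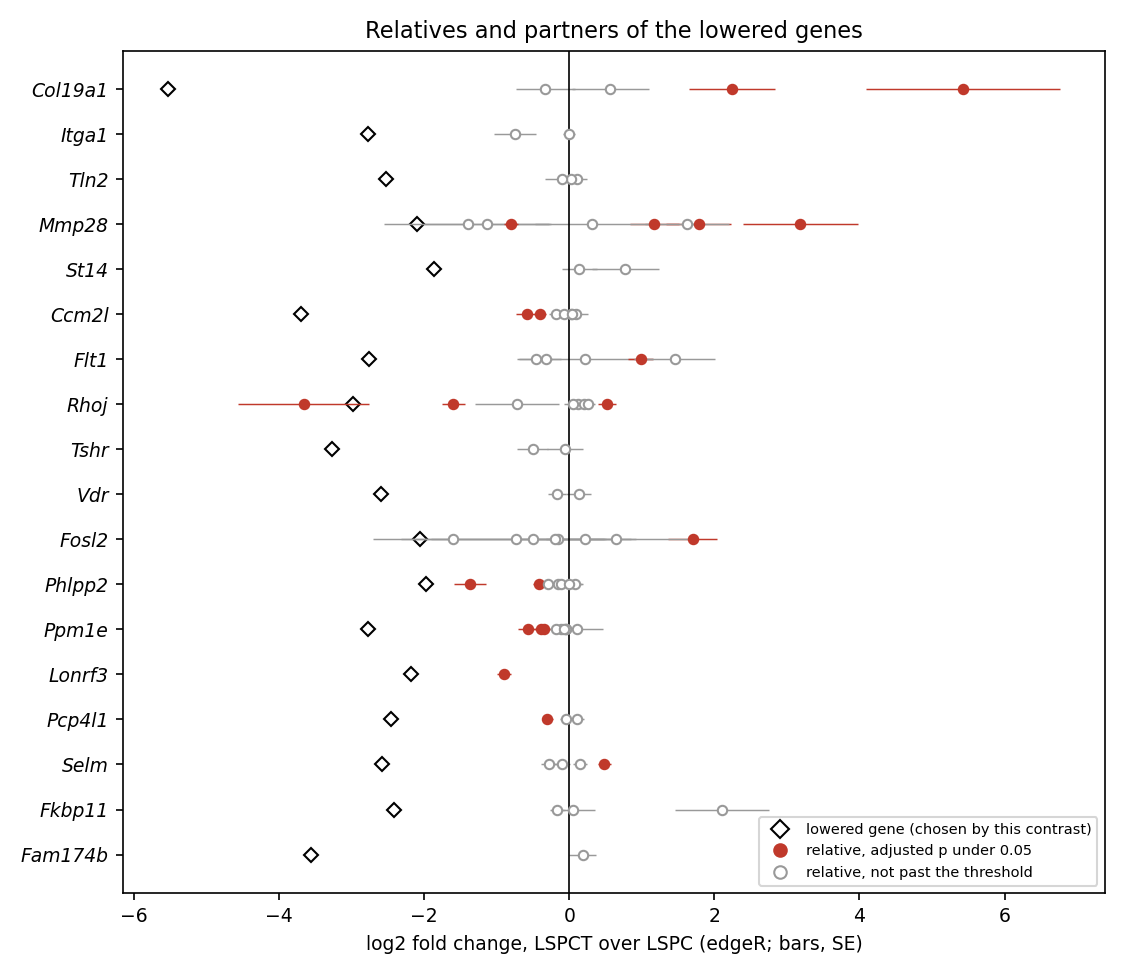
Fitted log2 fold change (LSPCT over LSPC) of relatives and partners of 18 of the lowered genes, 1 row per lowered gene; circles are relatives with SE bars, red where the edgeR adjusted p is under 0.05, and diamonds are the lowered genes themselves, which this contrast chose. Most relatives lie near 0, and Rhou and Lonrf1 lie left of it.

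Genes next to the members were read off in RefSeq order. Of the 40 nearest tested genes, 8 fell and 3 rose, where 8.24% of all genes tested fell and 8.96% rose, and none was itself a member. The log2 difference was below 0 for 31 neighbours and above 0 for 9, where the median over all genes tested was -0.0025. Pelo, Trim37 and 1700020L24Rik, all below 0, overlap the span of their member. The falls were small, from 0.31 on the log2 scale for Ppp2r5e beside Rhoj to 0.95 for Inpp5j beside Selm (edgeR adjusted p = 0.0393 and 0.00361). Beside Fam174b, Slco3a1 rose by 2.92 (edgeR adjusted p = 0.000243), and beside Lonrf3, Pgrmc1 rose by 1.23 (edgeR adjusted p = 0.000141).

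The treated libraries differed among themselves in a way that many of the 20 shared. LSPCT replicate 1 was the highest treated library for 15 of the 20, which held for 34.7% of the 8567 genes. It was at least 2 times the mean of replicates 2 and 3 for 6 members, Col19a1 (6.34 times), Tshr (4.82), Flt1 (3.68), Vdr (2.83), Rhoj (2.42) and Ppm1e (2.40), against 1.27% of the 8567 and 2.69% of 854 other genes among them that fell. For another 5 members, Itga1, Mmp28, Fosl2, Lonrf3 and St14, replicate 1 lay below that mean (0.605, 0.783, 0.867, 0.899 and 0.984 times). The median of the log2 ratio was 0.53 over the 20 and -0.03 over the 8567. Of the 854, 40.5% were highest in LSPCT replicate 1, with a median log2 ratio of 0.01. The 854 were not matched to the members in level or in size of fall. Some genes that were gained when replicate 1 was left out had such ratios too. Among them were Hpgd (6.44 times) and Myo18b (6.32), whereas Slpi (1.32) and Tpcn1 (1.25) were more even.

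**Figure D4:**
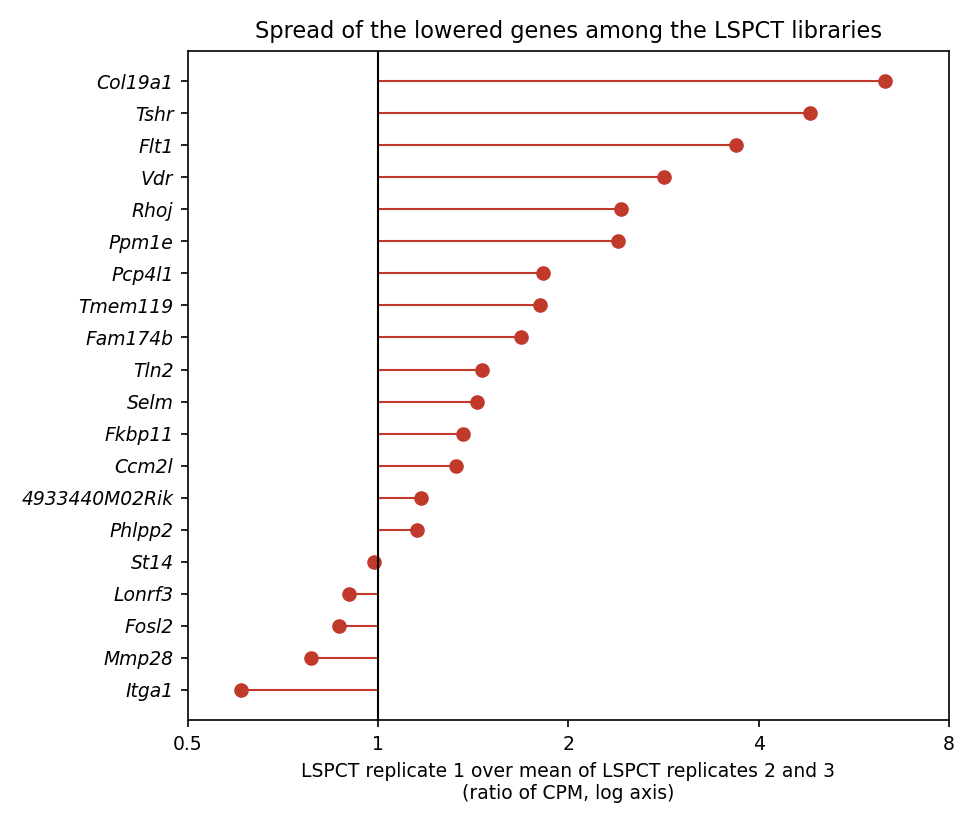
CPM of LSPCT replicate 1 over the mean of LSPCT replicates 2 and 3 for each of the 20 genes, on a log axis; the line at 1 marks equal levels. Col19a1, Tshr and Flt1 were over 3 times higher in replicate 1, and Itga1 was lower there.

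Markers of several other cell types were also highest in that library. The summed level of the T and NK cell markers was 222.6, 104.9 and 131.2 CPM in LSPCT replicates 1 to 3 and 69.1 to 71.2 CPM in LSPC libraries, and that of the B cell markers 187.4, 84.4 and 116.2 CPM and 75.9 to 87.9 CPM. The stromal and endothelial markers summed to 1112, 575.1 and 608.8 CPM in LSPCT replicates 1 to 3 and 252.4 to 316.8 CPM in LSPC libraries. Eosinophil, mast cell and basophil markers were mixed. Prg2, an eosinophil granule gene, was at 66.6, 4.36 and 3.34 CPM in LSPCT replicates 1 to 3 and 5.71 to 11.9 CPM in LSPC libraries. Ccr3 went with it in the LSPCT replicates, at 14.6, 2.14 and 2.89 CPM. Mcpt8 did not, at 17.5, 18.2 and 13.3 CPM. Epx (0.15, 0 and 0 CPM), Ear1 (0, 0 and 0.134 CPM) and Ear2 (0, 0.0928 and 0 CPM) were near 0 in LSPCT replicates 1 to 3. Among macrophage genes C1qa stood at 92.6, 8.03 and 14.4 CPM in LSPCT replicates 1 to 3 against 3.58, 0.338 and 2.02 CPM in LSPC libraries, and Mrc1 at 57.1, 6.31 and 18.2 CPM against 1.86, 0 and 0.448 CPM. The summed level of the 24 monocyte and macrophage markers did not single it out, at 2657, 2539 and 3224 CPM in LSPCT replicates 1 to 3 and 2500 to 3477 CPM in LSPC libraries. The part of any of these cells in the spread of the members was not tested.

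Lineage was read from 18 lists of marker and pathway genes. Of the 20 genes only Ccm2l was on any of them, in the vascular list, so the lists describe the other genes of the lineages beside the members. Primary granule and GMP genes had the highest share of lower genes of the 18 lists, with 10 of 17 lower and none higher (58.8%, against 8.24% of all genes tested; median log2 -0.65; 7 to 14 without single libraries, fewest without LSPC replicate 1 and most without LSPCT replicate 1). Mpo, Hdc and Nkg7, which the rule leaves out by name, are 3 of the 10, and without them 7 of 14 fell. The neutrophil elastase gene Elane fell to 1113, 924.6 and 666.1 CPM in LSPCT libraries, against 2994, 2530 and 2530 CPM in LSPC libraries (edgeR adjusted p = 0.000978), and Prtn3, the proteinase 3 gene, fell to 982.3, 821.1 and 561.7 CPM against 2063, 1779 and 1752 CPM in LSPC libraries (edgeR adjusted p = 0.00373). Both were highest in LSPCT replicate 1 among the treated libraries, as most members were. Neutrophil maturation genes had 1 lower and 1 higher of 18, and 3 rose without LSPC replicate 3, which stood apart in this list. Their summed level was 1928, 2544 and 2310 CPM in LSPCT replicates 1 to 3 and 2077, 1749 and 4458 CPM in LSPC replicates 1 to 3. The late granule gene S100a9 was at 38.4, 134.3 and 156.0 CPM in LSPCT replicates and 87.0, 2.37 and 646.7 CPM in LSPC replicates 1 to 3. Of 24 monocyte and macrophage genes 6 fell and 7 rose (2 rose without LSPC replicate 1 or 2), among them the macrophage pore protein gene Mpeg1 (log2 -1.29, edgeR adjusted p = 0.00293) and Emr1, which encodes F4/80 (165.3 CPM in LSPCT and 81.9 CPM in LSPC libraries on average, edgeR adjusted p = 0.00550).

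With all libraries, none fell among 10 tested eosinophil, mast cell and basophil genes (2 rose), 5 erythroid genes (1 rose), 6 megakaryocyte genes (1 rose), 9 B cell genes (2 rose) and 13 T and NK cell genes (4 rose). Over all genes tested 8.24% fell and 8.96% rose. Many of the calls in these lists hung on single libraries. The T and NK cell rises were 1, 0 and 1 without LSPC replicates 1, 2 and 3, and the B cell rises 0, 1 and 0. Without LSPCT replicate 1, 3 eosinophil, mast cell and basophil genes, 2 erythroid genes and 1 B cell gene fell. Of 10 dendritic cell genes 1 fell and 3 rose, with a rise of the transcription factor gene Spib (log2 3.73, edgeR adjusted p = 0.000434). The dendritic gene that fell was Flt3, which is also on the progenitor list. Of 14 haematopoietic stem cell genes none fell (3 did without LSPCT replicate 1) and 4 rose, among them Gata2 (log2 1.12, edgeR adjusted p = 0.000123). Gata2 is also 1 of the 2 rises among eosinophil, mast cell and basophil genes. Of 19 genes of common and multipotent progenitors 2 fell and 1 rose. The FLT3 receptor gene Flt3 fell to 38.5, 33.0 and 46.4 CPM in LSPCT libraries, against 78.0, 103.8 and 86.7 CPM in LSPC libraries (edgeR log2 -1.20, adjusted p = 0.00153), and the chromatin organiser gene Satb1 rose (log2 1.65, edgeR adjusted p = 0.000733). Of 31 genes of the MLL-AF9 programme 4 fell and 4 rose (7 fell without LSPCT replicate 1). Mef2c, Pbx3 and Bcl2, which the rule leaves out by name, are 3 of the 4 that fell. Of 11 stromal and endothelial genes 1 fell and 5 rose (3 rose without LSPCT replicate 3 or LSPC replicate 1), led by Vcam1 (log2 2.98, edgeR adjusted p = 0.000370).

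The pathway lists nearest to the members' functions were mixed. In single lists 5.56% to 18.2% of the tested genes were lower, against 8.24% of all genes tested. Higher were 5.56% to 17.6%, against 8.96%. Of 17 vascular signalling genes 2 were lower and 3 rose. The lower ones were Ccm2l, whose fall the rule fixed, and Heg1, so that 1 gene outside the members fell. Among those that rose was Rasip1, an endothelial Ras-interacting protein gene. It stood at 8.60, 14.3 and 10.6 CPM in LSPCT libraries against 1.22, 0.804 and 0.560 CPM in LSPC libraries (edgeR adjusted p = 0.000449). Of 22 G protein signalling regulators 4 fell and 3 rose, with the phosphodiesterase gene Pde4b the clearest rise (log2 1.31, edgeR adjusted p = 0.000129) and Prkar2b, a regulatory subunit gene of protein kinase A, the clearest fall (log2 -0.58, edgeR adjusted p = 0.00956). In that list 1 gene fell without LSPCT replicate 3, LSPC replicate 1 or LSPC replicate 3, 2 without LSPCT replicate 2 or LSPC replicate 2, and 7 without LSPCT replicate 1. Of 23 Ras, MAPK and growth factor genes 3 fell and 2 rose, of 18 Wnt and Notch genes 3 fell and 1 rose, and of 18 membrane traffic and exocytosis genes 1 fell and 2 rose. The Ras and MAPK falls were 1 without LSPCT replicate 3 or any of the LSPC replicates, and the Wnt and Notch falls 0 without LSPC replicate 1 and 1 without LSPCT replicate 3. The Wnt and Notch rise was lost without LSPC replicate 1 or 2. The membrane traffic gene that fell was the syntaxin-binding protein gene Stxbp6, at 0.400, 0.604 and 0.846 CPM in LSPCT libraries and 4.12, 7.15 and 6.42 CPM in LSPC libraries (edgeR adjusted p = 0.00111). Over all lists the median log2 difference was 0.11. Of 267 tested genes 36 fell (13.5%, against 8.24% of all genes tested) and 43 rose (16.1%, against 8.96%). Without LSPC replicate 1 these numbers were 22 and 24, without LSPCT replicate 1 they were 57 and 57, and without LSPC replicate 2 the number that rose was 25. The 36 lower with all libraries include Ccm2l, fixed by the rule, and 6 genes that the rule leaves out by name. Without those 6 genes 30 of 261 fell, Ccm2l still among them, and 43 rose. For single lists, the counts moved by over 1.5 times in 74 of 432 alternative fits.

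**Figure D5:**
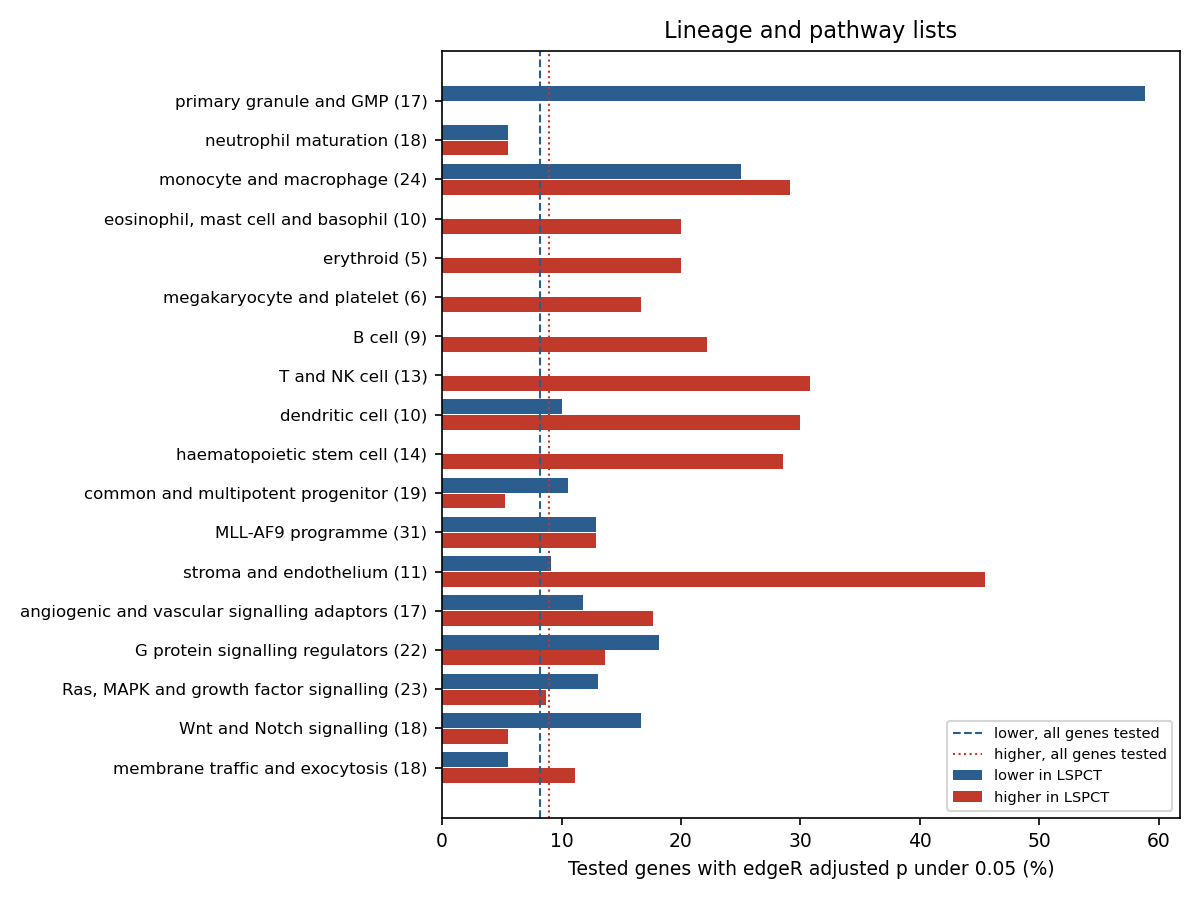
Share of tested genes in each list with an edgeR adjusted p under 0.05, lower (blue) and higher (red) in LSPCT than in LSPC libraries, with the number tested in brackets; dashed and dotted lines mark the shares over all genes tested. Primary granule and GMP genes reached 58.8% lower and none higher, and stromal and endothelial genes 45.5% higher. The shares include Ccm2l, which the rule chose, in the vascular list, and the genes that the rule leaves out by name.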

How the data were processed

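Each library has its own deposited table of raw counts for gene symbols; the values are whole numbers and were not normalized by the authors. The build mm9 and the tools featureCounts, DESeq2, TopHat2 2.1.0 and FastQC are named in the submitters' processing notes. The sources used here give neither the tools' order nor the annotation, the strand setting or the treatment of reads with several positions. If reads with several positions were dropped, close copies are counted too low.

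CPM is the raw count relative to the library total. Groups follow the sample titles. The groups were compared with edgeR 4.0.16 (R 4.3.3) on the counts: TMM factors (0.986 to 1.007), filterByExpr with a minimum of 10 counts (12729 genes), quasi-likelihood F test, two-sided, Benjamini-Hochberg over all genes tested, threshold 0.05. The SE was derived from the log2 fold change and its F statistic. The test was tried on simulated counts.

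The members, the 18 lists and the 18 sets of relatives were chosen with earlier results of these data known, the relatives once the members were known. All members are given by library. In lists with at least 3 called genes, up to 3 of the clearest in each direction could be named; other genes, all relatives included, were named after their values were seen. Alternatives were RLE or no scaling factors, 2 other filters, DESeq2 1.42.0, a replicate block, leaving out each library, and other limits in the rule. Promoters are RefSeq's (GRCm38.p6, not the build of the counts), matched by symbol or synonym. All 20 members matched a RefSeq gene. The 8901 promoters belong to 6996 of the 8567 genes, and promoters on chromosome 18 were left out. Exon overlaps are from GENCODE M21. Results for some relatives are not reported here by name.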

Additional observations from a re-analysis of the deposited data

How the results depend on the processing

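The choice of limits set how many genes were taken. With a divisor of 2 in place of 3 there were 75 genes, with 4 there were 6, with a floor of 20 CPM there were 11, and with the ratio of group means there were 64; a floor of 5 CPM gave 30 and TMM-scaled CPM gave the same 20. Leaving out 1 library gave 20 to 63 genes, with the 63 without LSPCT replicate 1. The 20 stay among them by construction, since leaving out a library can only ease the limits. The number of genes that fell was 443 to 1592 over fits without 1 library, against 1049 with all 6, and the number that rose was 586 to 1657, against 1140. For the lists the ranges were 22 to 57 lower and 24 to 57 higher, and for the relatives 6 to 19 lower and 1 to 10 higher; the relatives were added after the data were seen. DESeq2, the scaling factors and the filters kept these numbers within 1.5 times of those given.

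The labels do not say whether the replicate numbers pair the samples. The correlations of the deviations of same-numbered LSPCT and LSPC libraries were 0.118, -0.115 and 0.106, which do not settle it. LSPCT replicates 1 and 3 correlated best with their own number, and LSPCT replicate 2 with LSPC replicate 3 (0.140). With a replicate block 833 genes fell and 959 rose; not every library correlated best with its own number. Values under 0.112 CPM rest on fewer than 3 counts. The 20 genes are described, not tested, since the contrast chose them, and their levels are not corrected for gene length.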

Other observations

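Without LSPCT replicate 1, 43 more genes met the limits. They include immediate-early and stress genes with very uneven treated libraries. Fosb stood at 167.8, 0.511 and 1.43 CPM in LSPCT replicates 1 to 3 against 121.0, 147.8 and 11.9 CPM in LSPC replicates 1 to 3. Egr1 was at 66.5, 7.29 and 7.26 CPM against 48.4, 38.9 and 27.7 CPM, and Hspa1b at 383.6, 0.882 and 1.47 CPM against 43.2, 73.1 and 25.5 CPM in LSPC libraries. In each of these genes LSPCT replicate 1 lay above all untreated libraries, and LSPC replicate 3 was the lowest of them.

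Other genes gained in this way were steadier in untreated cells. Hpgd, which encodes the enzyme that breaks down prostaglandins, stood at 466.5, 69.4 and 75.4 CPM in LSPCT replicates 1 to 3 against 930.0, 952.9 and 986.9 CPM in LSPC libraries. Myo18b, a myosin gene, was at 95.1, 17.0 and 13.05 CPM against 169.4, 210.7 and 143.4 CPM, and the collagen gene Col5a3 at 24.3, 5.43 and 4.32 CPM against 47.2, 47.1 and 41.9 CPM in LSPC libraries. In these 3 genes LSPCT replicate 1 lay between the untreated libraries and the other treated ones. The fitted difference of Hpgd was -2.24 on the log2 scale (edgeR adjusted p = 0.0592) with all libraries and -3.73 without LSPCT replicate 1.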
